A study of Homo sapiens with 4 samples.

Results

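Histone methylation and Polycomb regulators are the enzymes and complex subunits that write, erase and read methyl marks on histone tails. The set examined here has 40 protein-coding genes of 19974 in the RefSeq gene table of GRCh38.p14, the assembly behind the hg38 coordinates, and the genes were chosen by name. A peak was assigned to a gene when that gene's body was the nearest protein-coding one to the peak's summit and lay within 100 kb. By this rule the 40 genes held 173 of 76636 peaks in the ATRA list, 123 of 69162 in the POM list, 139 of 85434 in the ATRA+POM list and 170 of 76402 in the DMSO list. Peaks were also merged over the 4 lists into regions, each assigned anew by its strongest summit. By this rule 214 of 122632 regions belonged to the 40 genes, and not every assigned peak lies in one of them.

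Open chromatin was profiled by ATAC-seq, an assay that reads where a transposase can insert into DNA, in the myeloma cell line OPM-2, which carries the translocation that activates NSD2. Cells received all-trans retinoic acid at 1 µM (ATRA, which activates nuclear receptors of the RAR family), pomalidomide at 1 µM (POM, a thalidomide derivative that redirects the cereblon ubiquitin ligase), 1 µM of each drug together (ATRA+POM), or DMSO, and were collected after 72 h. Each condition was 1 library of this 1 line. Differences between conditions could therefore not be checked against replicates, and tests are left out. Intervals of single ratios cover the counting error of reads only. Intervals of shares and medians treat peaks or regions as independent, which those of 1 gene or neighbourhood are not. None of these intervals covers variation between libraries. Reads amplified by PCR are not independent molecules, which the intervals do not include. In bulk material fewer cells with an open site and less opening per cell cannot be told apart.

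Histone methylation sets whether a promoter or enhancer can be used. Polycomb repressive complex 2 (PRC2) methylates lysine 27 of histone H3 (H3K27), and Polycomb repressive complex 1 (PRC1) ubiquitinates histone H2A and compacts chromatin, so that developmental genes stay silent. The COMPASS family of KMT2 and SETD1 enzymes methylates H3K4 at promoters and enhancers and works against Polycomb silencing. NSD1, NSD3, SETD2 and ASH1L methylate H3K36, DOT1L methylates H3K79, and EHMT1, EHMT2, SUV39H1 and SETDB1 methylate H3K9. The KDM enzymes remove these marks, and CREBBP and EP300 are acetyltransferases that compete with PRC2 by acetylating H3K27. In myeloma, overproduced NSD2 spreads H3K36 methylation and displaces H3K27 methylation, and losses of KDM6A are recurrent.

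The 7 promoter windows below carry the main contrasts among the 40 genes. SUZ12, CREBBP, KDM6B and KMT2D stood among those with the lowest signal relative to DMSO after POM or ATRA+POM. KDM6A kept its signal relative to DMSO, and PHC2 has a pair of promoters that differed. Each window runs from 250 bases before to 50 bases after a start site, 5′ to 3′ on the gene's strand, from RefSeq on GRCh38.p14. The windows are chr17:31936757-31937056 on the plus strand for SUZ12, chr16:3880664-3880963 on the minus strand for CREBBP and chr17:7833967-7834266 on the plus strand for KDM6B. Those of KMT2D and KDM6A are chr12:49060745-49061044 on the minus strand and chrX:44872938-44873237 on the plus strand. The PHC2 windows are chr1:33349850-33350149 for the internal start and chr1:33431046-33431345 for the upstream start, both on the minus strand. Capitals mark matches, on either strand, to GGGCGG (the core bound by SP and KLF factors), CCAAT (bound by NFY), CCGGAAG (ETS factors), GCATGCGC (NRF1) and TTTCGCGC or TTTGGCGC (E2F).
SUZ12: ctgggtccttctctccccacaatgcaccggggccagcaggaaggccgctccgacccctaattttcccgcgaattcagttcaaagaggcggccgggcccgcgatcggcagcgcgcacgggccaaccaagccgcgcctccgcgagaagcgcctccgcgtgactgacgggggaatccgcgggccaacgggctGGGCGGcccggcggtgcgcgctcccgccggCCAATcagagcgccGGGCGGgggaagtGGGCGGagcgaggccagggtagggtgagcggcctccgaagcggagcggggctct
CREBBP: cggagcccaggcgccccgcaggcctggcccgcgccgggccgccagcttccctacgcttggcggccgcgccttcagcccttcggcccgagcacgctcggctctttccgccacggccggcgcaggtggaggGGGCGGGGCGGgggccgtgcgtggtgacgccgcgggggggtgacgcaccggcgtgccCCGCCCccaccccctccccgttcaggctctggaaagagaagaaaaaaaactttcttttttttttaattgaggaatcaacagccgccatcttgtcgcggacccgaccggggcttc
KDM6B: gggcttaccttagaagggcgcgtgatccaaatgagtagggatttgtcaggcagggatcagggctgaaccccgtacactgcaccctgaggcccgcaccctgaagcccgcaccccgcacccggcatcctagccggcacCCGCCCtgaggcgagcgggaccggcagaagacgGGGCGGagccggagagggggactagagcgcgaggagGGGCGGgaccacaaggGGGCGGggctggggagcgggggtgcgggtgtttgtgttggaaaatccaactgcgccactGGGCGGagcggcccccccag
KMT2D: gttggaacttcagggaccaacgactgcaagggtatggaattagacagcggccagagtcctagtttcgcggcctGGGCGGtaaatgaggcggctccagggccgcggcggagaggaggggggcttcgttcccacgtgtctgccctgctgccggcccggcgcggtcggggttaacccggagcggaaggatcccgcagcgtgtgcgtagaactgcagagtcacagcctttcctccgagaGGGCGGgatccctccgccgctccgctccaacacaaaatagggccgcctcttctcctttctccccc
KDM6A: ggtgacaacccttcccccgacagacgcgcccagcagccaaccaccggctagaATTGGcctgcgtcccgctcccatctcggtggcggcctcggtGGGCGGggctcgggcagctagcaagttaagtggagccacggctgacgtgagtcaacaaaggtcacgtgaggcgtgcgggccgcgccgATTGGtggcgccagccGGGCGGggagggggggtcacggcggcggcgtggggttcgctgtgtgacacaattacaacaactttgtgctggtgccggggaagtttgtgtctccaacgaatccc
PHC2 internal start: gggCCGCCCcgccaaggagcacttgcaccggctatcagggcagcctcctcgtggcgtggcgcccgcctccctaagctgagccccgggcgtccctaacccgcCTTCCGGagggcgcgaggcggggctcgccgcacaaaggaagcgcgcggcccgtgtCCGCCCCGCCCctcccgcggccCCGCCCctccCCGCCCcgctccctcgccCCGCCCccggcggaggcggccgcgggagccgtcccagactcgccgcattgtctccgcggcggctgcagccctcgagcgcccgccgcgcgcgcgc
PHC2 upstream start: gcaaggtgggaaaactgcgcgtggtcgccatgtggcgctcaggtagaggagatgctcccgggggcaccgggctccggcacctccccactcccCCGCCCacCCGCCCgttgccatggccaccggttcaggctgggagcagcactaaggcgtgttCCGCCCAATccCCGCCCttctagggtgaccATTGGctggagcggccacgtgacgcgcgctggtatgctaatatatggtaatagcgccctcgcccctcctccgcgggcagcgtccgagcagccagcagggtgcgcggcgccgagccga

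The promoter table held 52 windows for 35 of the 40 genes, against 22132 windows for 15812 genes in all. SETD1B, DOT1L, CBX2, CBX8 and NSD3 had no listed start, so their gene boundaries were used in its place. The windows of the 40 genes were richer in G and C, with a median of 70.8%, against 62.3% over all windows. The GGGCGG core occurred in 41 of the 52 windows (78.8%), against 56.3% of all windows of the same length, and matches to it can overlap each other and CCAAT. The NFY letters were in 14 windows (26.9%), against 34.6% of all, and CCGGAAG in 6 (11.5%), against 12.8% of all. The NRF1 and E2F letters were in 1 window each (1.92%), against 3.74% and 1.5% of all windows. The letters AGGTCA or AGTTCA, to which retinoic acid receptors bind, were in 3 windows (5.77%), against 19.4% of all. The spaced direct repeat of them called DR5 was in 0 windows, against 0.0226% of all. GGGAA, the core bound by Ikaros factors, was in 33 windows (63.5%), against 66.5% of all, the AP-1 letters TGANTCA in 2 (3.85%), against 6.15% of all, and the E-box CAGGTG in 6 (11.5%), against 20% of all. These are letter matches in short windows and say nothing on binding.

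The libraries differed in depth, and this bears on every value below. The number of reads at a summit (the pileup) was recovered from the deposited fold and p-value of each peak; the smallest pileup called was 8 in ATRA, 4 in POM, 7 in ATRA+POM and 8 in DMSO. Over 42930 regions called in all 4 lists, the median pileup relative to DMSO was 0.873 in ATRA, 0.396 in POM and 0.707 in ATRA+POM, and pileups were divided by these scales before ratios were taken. Of the marker genes of the labelled cell type, 7 of 8 plasma cell genes had a promoter peak in every list, SLAMF7 in none, and 0 of 4 B cell genes had one in any; an open promoter does not show expression. Promoter peaks were also present for CD3E and CD8A of 4 T cell genes and KRT18 of 2 epithelial genes in every list, and for MPO of 4 myeloid genes in ATRA and ATRA+POM. CD14, CSF1R, LYZ, CD2, CD3D and EPCAM had none.

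The 40 genes were mostly open at their promoters in all conditions. A region within 1 kb of a listed start, or of a gene boundary where no start was listed, was present at 37 of 40 genes. Such a region was called for 37 in ATRA, 34 in POM, 35 in ATRA+POM and 37 in DMSO. Regions were placed by their strongest summit over the lists. CBX2 thus counts as lacking one in POM and ATRA+POM, although each of these lists had 1 CBX2 peak with its own summit within 1 kb. The same share over all protein-coding genes is not given here, so these counts do not set the 40 genes apart from genes at large. RING1, SETD1B and EHMT2 had none. RING1, an H2A ubiquitin ligase of PRC1, and EHMT2, an H3K9 methyltransferase, had 0 assigned peaks in all 4 lists. Both lie in a stretch of chromosome 6 from 28500001 to 33500000, which covers the major histocompatibility complex and held 2 peaks in each list for 172 protein-coding genes. The stretches of the same length before and after it held 202, 197, 209 and 201 peaks and 230, 169, 181 and 242 peaks in ATRA, POM, ATRA+POM and DMSO. RING1 and EHMT2 thus lie where nearly no peak was called for any gene, and their 0 peaks say nothing on these genes in particular. SETD1B, an H3K4 methyltransferase, had 6 peaks in ATRA, 7 in POM, 6 in ATRA+POM and 6 in DMSO, all more than 1 kb from its boundaries.

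**Figure D1:**
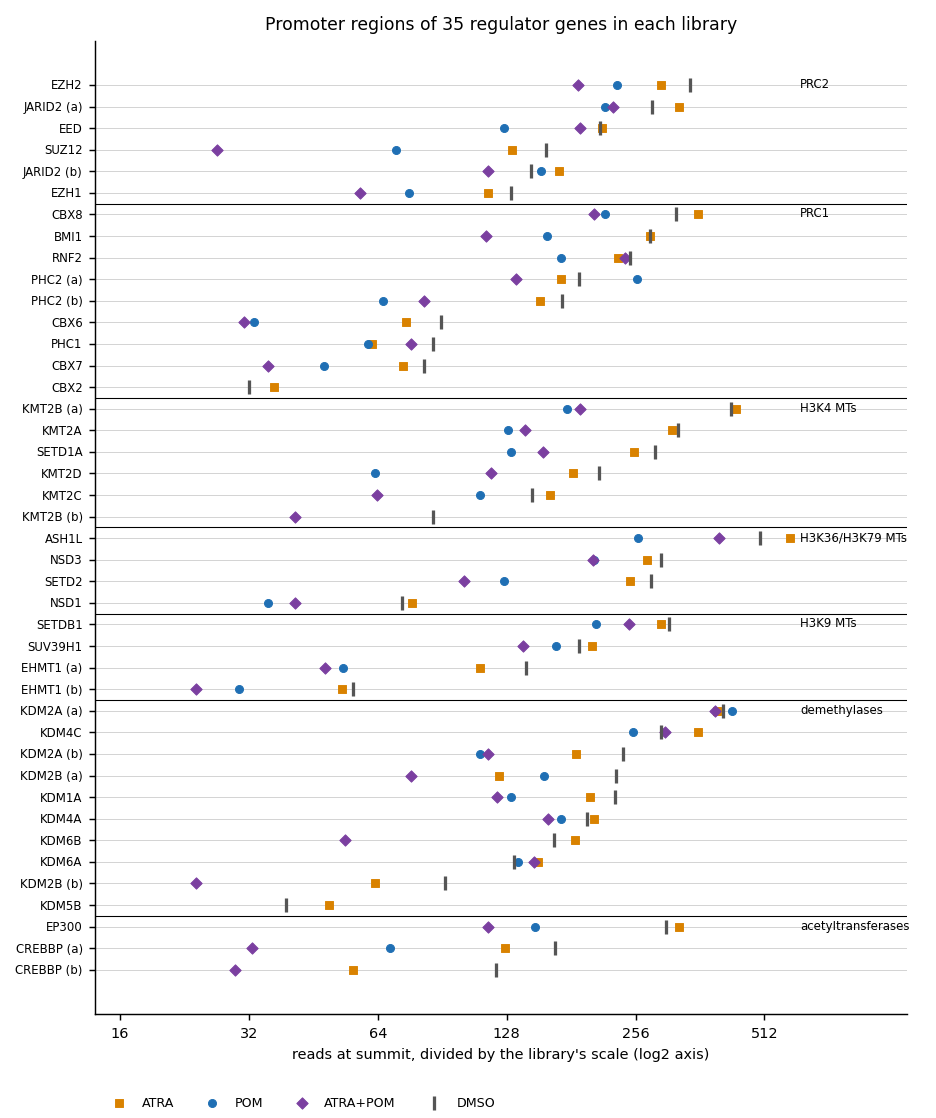
Reads at the summit divided by the library's scale (horizontal, log2 axis) for each promoter region assigned to a regulator gene (rows, grouped by role; MTs, methyltransferases; a and b, regions of 1 gene), in ATRA (squares), POM (circles), ATRA+POM (diamonds) and DMSO (bars). Most POM and ATRA+POM points sit to the left of DMSO. The POM points of KDM6A, KDM2A (a), PHC2 (a) and JARID2 (b) sit to its right. A missing point means that no peak was called in that region.

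Promoter peaks made up 42 of 173 assigned peaks in ATRA, 41 of 123 in POM, 40 of 139 in ATRA+POM and 42 of 170 in DMSO. As shares these were 24.3% in ATRA (95% Wilson interval 18.5 to 31.2), 33.3% in POM (25.6 to 42.1), 28.8% in ATRA+POM (21.9 to 36.8) and 24.7% in DMSO (18.8 to 31.7). Over whole lists the promoter shares were 14.8%, 16%, 12.9% and 14.9% in the same libraries. Promoter counts thus hardly differed between conditions, and the lists differed in distal peaks: 131 in ATRA, 82 in POM and 99 in ATRA+POM, against 128 in DMSO. In rank by −log10 q, a promoter peak of the 40 genes stood at a median of 12.1% from the top of the ATRA list, 23.7% in POM, 18.7% in ATRA+POM and 9.55% in DMSO. For all promoter peaks these medians were 9.95%, 16.2%, 12.4% and 9.93%. Distal peaks of the 40 genes had median ranks of 52.8%, 56.6%, 49.9% and 54.2%, against 55.8%, 55.7%, 54.8% and 55.8% for all distal peaks.

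A few long genes held many of the peaks. KDM2B, an H3K36 demethylase that brings a PRC1 variant to CpG islands, had 10 peaks in ATRA, 7 in POM, 9 in ATRA+POM and 15 in DMSO. KMT2C, an H3K4 methyltransferase of enhancers, had 14 peaks in ATRA, 7 in POM, 8 in ATRA+POM and 10 in DMSO. KDM4C, a demethylase of H3K9 and H3K36, had 11, 7, 11 and 9 peaks in the same libraries, ASH1L had 11, 8, 8 and 9, and JARID2, an accessory subunit of PRC2, had 9, 8, 8 and 10. These counts follow depth as well as accessibility, and the part of each was not tested.

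Exposure to ATRA left the accessibility of the set close to that in DMSO. Of the 173 peaks in ATRA, 30 had no overlapping DMSO peak (17.3%, interval 12.4 to 23.7), against 19.5% of all ATRA peaks. Of the 170 peaks in DMSO, 28 had no overlapping ATRA peak (16.5%), against 19.5% of all DMSO peaks. Among 126 regions called in both, with a pileup of at least 20 in at least 1 of the libraries, 1 was 2-fold or more higher (1.13% of all such regions were) and 1 was 2-fold or more lower (0.916% of all were); with a scale from the background depth, 1 was higher and 2 were lower, against 0.637% and 1.6% of all. The median log2 ratio of ATRA over DMSO was -0.07 over 42 promoter regions (interval -0.16 to 0.04) and -0.03 over 84 distal ones (-0.09 to 0.02), against 0.01 and -0.01 over all promoter and distal regions. Most of the 30 and 28 unmatched peaks were weak, with a median pileup of 13 and 14 reads.

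The regions that stood apart after ATRA were few. At CREBBP, the region over the internal start (chr16:3879368-3880142) had 49 reads in ATRA, 21 in ATRA+POM and 121 in DMSO, with no peak in POM; its log2 ratio of ATRA over DMSO was -1.11 (-1.62 to -0.62). The internal promoter of KDM2B (chr12:121467007-121467976) had 107 reads in ATRA, 62 in POM, 54 in ATRA+POM and 231 in DMSO, and its log2 ratio of ATRA over DMSO was -0.91 (-1.26 to -0.58). In the other direction, a region inside EZH2 (chr7:148856211-148856597) had 23 reads in ATRA, 10 in ATRA+POM and 10 in DMSO, a log2 ratio of 1.40 (0.27 to 2.63) for ATRA over DMSO on few reads. Of the 59 peaks of the set among the 20000 strongest of ATRA, 1 had no DMSO counterpart, as had 9 of all 20000. It had 103 reads at chr17:79810197-79810674, 13.2 kb from the body of CBX8, a chromodomain subunit of PRC1. The nearest DMSO peak lay only 463 bp away, in a region (chr17:79811137-79811976) with 91 reads in ATRA, 13 in POM, 34 in ATRA+POM and 129 in DMSO. For DMSO peaks missing after ATRA the highest −log10 q was 11.4, at 1387 bp from the start of KMT2A, an H3K4 methyltransferase, with 98 reads in DMSO and the nearest ATRA peak 776 bp away.

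Exposure to POM was accompanied by lower relative signal at many of the regulators' regions. Of the 123 peaks in POM, 10 had no overlapping DMSO peak (8.13%, interval 4.48 to 14.3), against 27.2% of all POM peaks. Of the 170 peaks in DMSO, 65 had no overlapping POM peak (38.2%, interval 31.3 to 45.7), against 36.6% of all DMSO peaks, a share near the background. Among 94 regions called in both, 2 were 2-fold or more higher (2.13%, with 10.1% of all regions) and 28 were 2-fold or more lower (29.8%, with 10.5% of all regions). The median log2 ratio of POM over DMSO was -0.79 over 37 promoter regions (-1.02 to -0.55), against -0.48 over all promoter regions, and -0.56 over 57 distal regions (-0.69 to -0.30), against 0.07 over all distal regions.

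**Figure D2:**
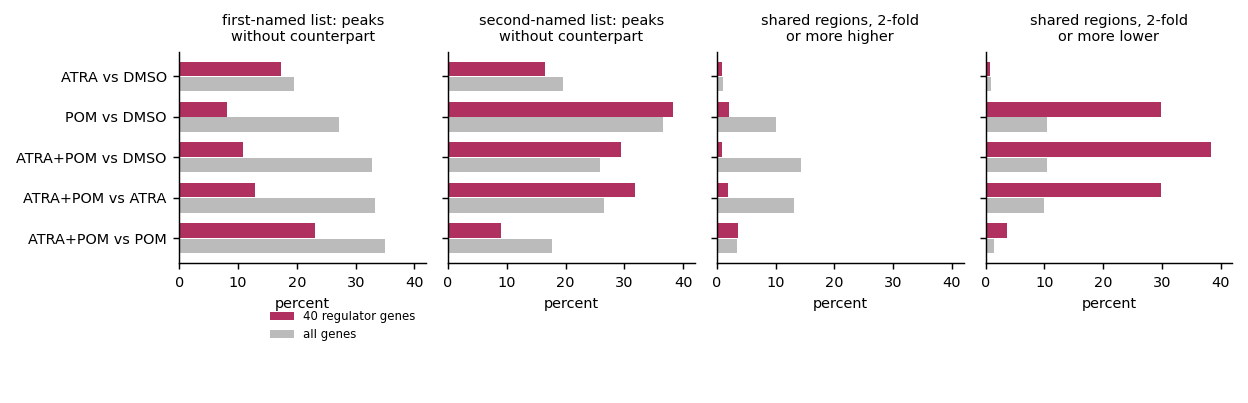
Percent of peaks with no overlapping peak in the other list (left pair of panels) and percent of shared regions 2-fold or more higher or lower in scaled pileup (right pair), for the 40 regulator genes (red) and all genes (grey), by comparison. After POM, alone or with ATRA, 29.8 to 38.3% of the regulators' shared regions were 2-fold lower, against 9.9 to 10.5% of all.

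The size of this difference depends on the scale between libraries. With a scale from the background depth, which moves every log2 ratio of POM over DMSO up by 0.23, 3 of the 94 regions were 2-fold higher and 16 lower, against 15.2% and 5.72% of all regions. With a scale from promoter regions alone, which moves it up by 0.48, 7 were higher and 4 lower, against 22.8% and 2.55% of all. The median log2 ratio over the 37 promoter regions was then -0.31, and over the distal regions -0.08. Regions below 0 made up 81.9%, 72.3% and 62.8% of the 94 under the 3 scales, against 54%, 42.1% and 29.9% of all regions. A direction stated for a single gene below is that under the scale from shared regions; under the scale from promoter regions 0.48 is added to each log2 ratio of POM over DMSO and 0.47 to each of ATRA+POM over DMSO, which turns ratios nearer to 0 than that positive.

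The surroundings of the genes moved with the result. Distal regions of the 40 genes had a median of 7 protein-coding genes within 250 kb, against 3 for all distal regions, and promoter regions had 7, as had all promoter regions. Over all promoter regions the median log2 ratio of POM over DMSO was -0.17 where 1 to 4 genes lay within 250 kb and -0.80 where 15 to 52 did; over all distal regions it was 0.46 with 0 to 1 genes and -0.42 with 9 to 51. When each ratio was centred on all regions of the same class and a like number of genes nearby (5 bins), the median of the 40 genes was -0.24 over promoter and -0.28 over distal regions, and 1 region was 2-fold higher and 9 lower of 94 (1.06% and 9.57%), against 8.5% and 6.38% of all regions. The lower share was then nearer to that of all regions but still above it. Regions below 0 made up 72.3% of the 94 after this centring, against 49.9% of all. Centred instead on promoters of similar GC content, the promoter median was -0.31. Both centrings were chosen after the values were seen, and what part gene number or base composition has in the ratios was not tested.

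**Figure D3:**
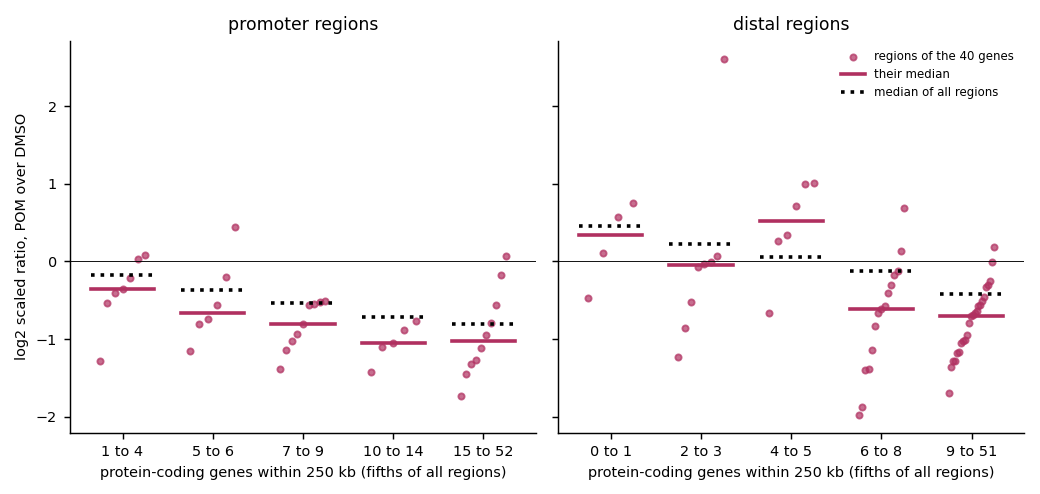
Log2 scaled ratio of POM over DMSO (vertical) by the number of protein-coding genes within 250 kb (horizontal, 5 bins) for promoter and distal regions of the 40 genes (points; red lines, their medians) and the median of all regions (dotted). The medians of all regions are lower in gene-rich surroundings, and the red line is below the dotted one in 9 of 10 bins, the exception being distal regions with 4 to 5 genes.

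Among PRC2 genes, the median log2 ratio of POM over DMSO over 6 promoter regions was -0.66 and the members differed. Over 8 distal regions of PRC2 genes it was 0.16, with 3 below 0, where the 57 distal regions of the whole set had a median of -0.56. SUZ12, the scaffold subunit, had 115 reads at its promoter in ATRA, 28 in POM, 19 in ATRA+POM and 158 in DMSO (chr17:31936462-31937702). After scaling, its log2 ratio was -1.16 (-1.79 to -0.57) for POM over DMSO and -2.56 (-3.33 to -1.87) for ATRA+POM over DMSO, the lowest value of any assigned region in that comparison. SUZ12 has a partial copy in the genome, and how reads were placed between the copies is not given in the sources used here. EZH2, the main H3K27 methyltransferase, had 257 reads in ATRA, 92 in POM, 133 in ATRA+POM and 344 in DMSO, and log2 ratios to DMSO of -0.57 (-0.91 to -0.23) for POM and -0.87 (-1.17 to -0.58) for ATRA+POM. Its relative EZH1 had 101, 30 and 41 reads in ATRA, POM and ATRA+POM and 131 in DMSO. EED, which binds the H3K27 mark and activates the enzyme, had 187, 50 and 134 reads in ATRA, POM and ATRA+POM and 212 in DMSO; its interval included 0 for ATRA+POM over DMSO (-0.48 to 0.16) but not for POM over DMSO (-1.22 to -0.30). JARID2 had 282, 86 and 160 reads at its first start in ATRA, POM and ATRA+POM and 279 in DMSO, and log2 ratios to DMSO of -0.36 for POM and -0.30 for ATRA+POM. At its internal start (chr6:15248523-15249147) there were 148, 61 and 82 reads in the treated libraries and 146 in DMSO, a log2 ratio of 0.08 (-0.38 to 0.52) for POM over DMSO.

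Distal regions near EED had higher relative signal after POM, where 44 of the 57 distal regions of the set were below 0. The region chr11:86193116-86193996, 51045 bp from the gene, had 73 reads in ATRA, 76 in POM, 81 in ATRA+POM and 95 in DMSO, which gave a log2 ratio of 1.02 (0.56 to 1.47) for POM over DMSO. Its raw reads in POM were below those in DMSO, and the ratio is above 0 after scaling. A neighbour at chr11:86182881-86183978 had 83 reads in ATRA, 85 in POM, 118 in ATRA+POM and 108 in DMSO, with 0.99 (0.56 to 1.41) for POM and 0.63 (0.24 to 1.02) for ATRA+POM over DMSO. The regions chr11:86218245-86219119 and chr11:86291720-86292382 were also above 0 for POM over DMSO, at 0.71 (0.03 to 1.37) and 0.26 (-0.61 to 1.08). At the EED promoter the log2 ratio of POM over DMSO was -0.75, so regions assigned to 1 gene lay on both sides of 0.

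PRC1 genes had a median log2 ratio of -0.66 for POM over DMSO over 8 promoter regions, with 2 of them 2-fold lower (19.9% of all promoter regions were). Over 12 distal regions the median was -0.63, with 5 2-fold lower (7.51% of all distal regions were). CBX6, a chromodomain subunit, had 65 reads in ATRA, 13 in POM, 22 in ATRA+POM and 90 in DMSO, and a log2 ratio of -1.45 (-2.42 to -0.61) for POM over DMSO. The 2 lowest distal ratios of POM over DMSO were both near CBX8: -1.97 (-2.92 to -1.15) at chr17:79811137-79811976 and -1.88 (-2.79 to -1.08) at chr17:79800545-79801402. The second of these had 109 reads in ATRA, 14 in POM, 45 in ATRA+POM and 130 in DMSO. At the boundary of CBX8 itself the signal differed less, with 312 reads in ATRA, 86 in POM, 145 in ATRA+POM and 319 in DMSO and a log2 ratio of -0.55 for POM over DMSO. CBX7, a paralogue that binds H3K27 methylation, had 64, 19 and 25 reads at its promoter in ATRA, POM and ATRA+POM and 82 in DMSO. It also had a region 18334 bp from its body (chr22:39170739-39171291) with 85 reads in ATRA, 16 in POM, 26 in ATRA+POM and 131 in DMSO. Its log2 ratio was -1.70 (-2.55 to -0.94) for POM over DMSO. A region inside CBX7 (chr22:39144221-39146177) had 78, 52 and 79 reads in ATRA, POM and ATRA+POM and 132 in DMSO, a log2 ratio of -0.01 (-0.50 to 0.47) for POM over DMSO. The region at CBX2 within 1 kb of its boundary, with 32 reads in ATRA and 32 in DMSO, was called in neither POM nor ATRA+POM. Each of these 2 lists still had 1 CBX2 peak with its summit within 1 kb of the boundary. That peak fell in the adjoining region chr17:79778053-79778833, with 11 reads in POM and 14 in ATRA+POM, whose strongest summit lies 1080 bp from the boundary.

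BMI1, a RING finger subunit that sets the activity of PRC1, had 242 reads at its start in ATRA, 63 in POM, 81 in ATRA+POM and 277 in DMSO, with log2 ratios to DMSO of -0.80 for POM and -1.27 (-1.65 to -0.91) for ATRA+POM. This region lies in the bodies of both BMI1 and the readthrough gene COMMD3-BMI1. RNF2, the H2A ubiquitin ligase, had 203 reads in ATRA, 68 in POM, 171 in ATRA+POM and 248 in DMSO; its log2 ratio was -0.53 (-0.94 to -0.14) for POM and -0.04 (-0.33 to 0.25) for ATRA+POM over DMSO. PHC1 and PHC2 are Polyhomeotic subunits that link PRC1 particles. PHC1 had 54, 24 and 54 reads in ATRA, POM and ATRA+POM and 86 in DMSO, and none of its 3 intervals against DMSO excluded 0. The promoters of PHC2 differed: the region over the internal start (chr1:33348853-33350655) had 134 reads in ATRA, 26 in POM, 58 in ATRA+POM and 172 in DMSO, and that over the upstream start (chr1:33430792-33431617) had 150, 102, 95 and 189 in the same libraries. Their log2 ratios of POM over DMSO were -1.39 (-2.04 to -0.79) and 0.45 (0.09 to 0.80), intervals that do not overlap. With ATRA+POM over DMSO both were below 0, at -1.07 and -0.49. The internal window printed above holds more GGGCGG matches, 6 against 4 in the upstream window, and has 80.7% G and C, against 69%.

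The H3K4 methyltransferases had the lowest median of the roles with more than 2 promoter regions measured, -1.28 for POM over DMSO over 5 regions. Of these, 4 were 2-fold lower, where 19.9% of all promoter regions were. For ATRA+POM over DMSO the median over 6 regions was -1.12. KMT2D, which marks enhancers, had 160 reads in ATRA, 25 in POM, 83 in ATRA+POM and 210 in DMSO (chr12:49059564-49061305). Its log2 ratio of POM over DMSO, -1.73 (-2.39 to -1.13), was the lowest of the 37 promoter regions measured. Promoter regions with no POM peak, such as the internal one of CREBBP, have no ratio and are not ranked. The log2 ratio of KMT2D for ATRA+POM over DMSO was -0.84 (-1.22 to -0.47). ATRA+POM over POM was 0.89 (0.23 to 1.60), the highest promoter ratio of that comparison. KMT2A had 272 reads in ATRA, 51 in POM, 100 in ATRA+POM and 322 in DMSO, and KMT2B had 384, 70, 134 and 428. Their log2 ratios of POM over DMSO were -1.32 (-1.78 to -0.89) and -1.28 (-1.66 to -0.91), and those of ATRA+POM over DMSO -1.19 and -1.18. KMT2B is 1 of the genes with no assigned peak in ATRA, because the summit of its promoter peak there was nearer to another gene body, although the region itself was called. SETD1A had 222 reads in ATRA, 52 in POM, 110 in ATRA+POM and 284 in DMSO, a log2 ratio of -1.11 (-1.57 to -0.68) for POM over DMSO. Inside SETD1B, 5 regions with 267 to 349 reads in DMSO had log2 ratios between -1.19 and -0.56 for POM over DMSO and between -1.18 and -0.45 for ATRA+POM over DMSO.

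KMT2C held both a lower promoter and the highest region of the set. Its promoter had 141 reads in ATRA, 44 in POM, 45 in ATRA+POM and 147 in DMSO, with log2 ratios to DMSO of -0.40 (-0.92 to 0.09) for POM and -1.21 (-1.72 to -0.72) for ATRA+POM. The region chr7:152522331-152523261, 86781 bp from the gene body, had 15 reads in ATRA, 46 in POM, 52 in ATRA+POM and 19 in DMSO. Both libraries with POM thus had more reads than both without, before any scaling. The log2 ratio was 2.61 (1.81 to 3.47) for POM over DMSO and 2.10 (1.25 to 3.03) for ATRA+POM over ATRA, comparisons with no library in common. The most read region of the gene, chr7:152463448-152465012, had 474 reads in ATRA, 201 in POM, 250 in ATRA+POM and 534 in DMSO, a log2 ratio of -0.07 (-0.31 to 0.16) for POM over DMSO. Parts of KMT2C have near-identical copies elsewhere in the genome, so its peaks are uncertain where reads could be split.

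The H3K36 and H3K79 methyltransferases had 4 promoter regions assigned, with a median log2 ratio of -0.99 for POM over DMSO. SETD2, which deposits H3K36 trimethylation along transcribed genes, had 217 reads in ATRA, 50 in POM, 72 in ATRA+POM and 278 in DMSO, with log2 ratios to DMSO of -1.14 (-1.60 to -0.70) for POM and -1.45 (-1.84 to -1.07) for ATRA+POM. ASH1L had 514 reads in ATRA, 103 in POM, 283 in ATRA+POM and 499 in DMSO, the most of any assigned promoter in ATRA, ATRA+POM and DMSO but not in POM. Its log2 ratio was -0.94 (-1.26 to -0.63) for POM and -0.32 (-0.53 to -0.11) for ATRA+POM over DMSO. NSD3, which methylates H3K36, had 238 reads in ATRA, 81 in POM, 144 in ATRA+POM and 294 in DMSO, with log2 ratios to DMSO of -0.52 for POM and -0.53 for ATRA+POM. NSD1, its relative, had 67 reads in ATRA, 14 in POM, 29 in ATRA+POM and 73 in DMSO at its promoter, a log2 ratio of -1.05 (-1.99 to -0.21) for POM over DMSO. The region past its other end, chr5:177300280-177300761, had 24 reads in POM and 68 in ATRA+POM and no peak in ATRA or DMSO, within 230 bp of the gene body and 1359 bp from the nearest DMSO peak. Scaled to DMSO, these correspond to 60.6 and 96.2 reads. The smallest pileup called anywhere in DMSO was 8, but the reads needed for a call differed between places. A KMT2B region with 86 reads in DMSO stood at 82.2% from the top of that list. The NSD1 region was 1 of 2 regions of the set called with POM and ATRA+POM alone (0.935%), a pattern that 6.05% of all regions had. The boundary region of DOT1L had 113 reads in ATRA, 29 in POM, 61 in ATRA+POM and 220 in DMSO. Its top summit lies nearest to the neighbour AP3D1, so it is not among the 214 regions. By single peaks DOT1L had 1 assigned in ATRA, 1 in POM, 1 in ATRA+POM and 0 in DMSO.

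Of the H3K9 methyltransferases, EHMT1 had the lower promoters. Its stronger region had 97 reads in ATRA, 21 in POM, 34 in ATRA+POM and 142 in DMSO, with log2 ratios to DMSO of -1.42 (-2.16 to -0.75) for POM and -1.56 (-2.15 to -1.01) for ATRA+POM. SUV39H1, which trimethylates H3K9 in heterochromatin, had 177, 66 and 99 reads in the treated libraries and 189 in DMSO, a log2 ratio of -0.18 (-0.61 to 0.23) for POM over DMSO. SETDB1, which silences repeats, had 256, 82 and 175 reads in ATRA, POM and ATRA+POM and 306 in DMSO, a log2 ratio of -0.56 (-0.93 to -0.21) for POM over DMSO.

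The demethylases had the highest promoter median of the roles for POM over DMSO, -0.39, but only over the 8 regions with a POM peak. Promoter regions of KDM6B, KDM2B and KDM5B that had no POM peak, described below, have no ratio and are left out of it. For ATRA+POM over DMSO the demethylase median was -0.98 over 10 regions, below those of PRC2 (-0.60) and PRC1 (-0.85). Of the 4 promoters of the set above 0 for POM over DMSO, 2 were of demethylases, those of KDM6A and KDM2A. KDM6A, the X-linked H3K27 demethylase, had 132 reads in ATRA, 54 in POM, 105 in ATRA+POM and 133 in DMSO, and log2 ratios to DMSO of 0.19, 0.04 (-0.45 to 0.50) and 0.16 (-0.22 to 0.54) for ATRA, POM and ATRA+POM. The internal promoter of KDM2A (chr11:67239392-67241541) had 346 reads in ATRA, 170 in POM, 278 in ATRA+POM and 410 in DMSO, a log2 ratio of 0.07 (-0.20 to 0.33) for POM over DMSO. Its upstream promoter (chr11:67118874-67120328) had 162, 44, 82 and 239 reads and a ratio of -1.10 (-1.60 to -0.64), again an interval apart from that of the other promoter of the same gene. KDM4A had 179, 68 and 113 reads in ATRA, POM and ATRA+POM and 197 in DMSO, and KDM4C had 312, 100 and 212 reads and 293 in DMSO. Both remove H3K9 and H3K36 methylation, and their log2 ratios were -0.20 (-0.62 to 0.21) and -0.21 (-0.56 to 0.12) for POM over DMSO. KDM1A, which acts on H3K4, had 175, 52 and 86 reads in ATRA, POM and ATRA+POM and 229 in DMSO, a log2 ratio of -0.80 (-1.27 to -0.36) for POM over DMSO. The promoter of KDM5A, an H3K4 demethylase, lies nearest to CCDC77 and had 158, 33 and 72 reads in the treated libraries and 163 in DMSO.

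KDM6B, the other H3K27 demethylase, had no peak at its first start in POM. The region chr17:7833837-7834430 had 161 reads in ATRA, 38 in ATRA+POM and 165 in DMSO, with a log2 ratio of -1.62 (-2.17 to -1.10) for ATRA+POM over DMSO. A region 1429 bp from a start (chr17:7834731-7837068) was called in all lists, with 163 reads in ATRA, 37 in POM, 85 in ATRA+POM and 209 in DMSO. Further inside, chr17:7843361-7845165 counted as a promoter because it lies within 1 kb of a start of LOC124904106, which overlaps KDM6B; its log2 ratio was -0.95 for POM and -1.51 for ATRA+POM over DMSO. KDM2B lacked peaks in POM at its upstream promoter (chr12:121579842-121580746), with 55 reads in ATRA, 17 in ATRA+POM and 92 in DMSO. It also lacked one in its body at chr12:121443050-121443852, with 70 reads in ATRA, 52 in ATRA+POM and 76 in DMSO. At the depth of POM, the DMSO pileups at these sites correspond to 36.4 and 30.1 reads. The smallest pileup called anywhere in POM was 4, but the reads needed for a call differed between places. A CBX8 region with 14 reads in POM stood at 95.6% from the top of that list. The internal promoter region of CREBBP lacked a POM peak too (47.9 reads at the depth of POM, nearest POM peak 480 bp away). The set had 61 peaks among the 20000 strongest of DMSO, and the 3 at KDM2B and CREBBP were the ones that POM lacked. Of all 20000, POM lacked 340. The H3K4 demethylase KDM5B had a weak promoter region with 43 reads in ATRA and 39 in DMSO, called in neither POM nor ATRA+POM.

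**Figure D4:**
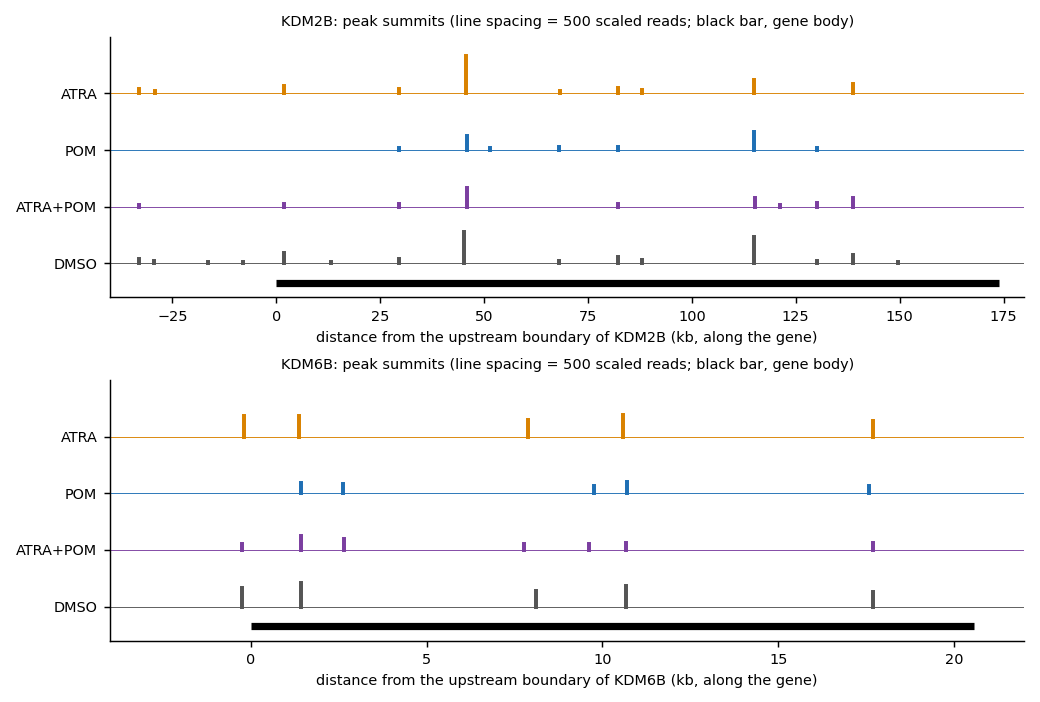
Peak summits at KDM2B (top) and KDM6B (bottom) by distance along the gene from its upstream boundary (kb), in ATRA, POM, ATRA+POM and DMSO from the top line down; the height of a stick is the scaled pileup, and the black bar is the gene body. At the first start of KDM6B (near 0) no POM stick is drawn, and KDM2B has 7 sticks in POM, against 15 in DMSO.

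The acetyltransferases CREBBP and EP300 were lower after both exposures with POM. At the first start of CREBBP (chr16:3880622-3881265) there were 111 reads in ATRA, 27 in POM, 23 in ATRA+POM and 166 in DMSO. The log2 ratios to DMSO were -0.38 (-0.74 to -0.03) for ATRA, -1.28 (-1.93 to -0.69) for POM and -2.35 (-3.05 to -1.72) for ATRA+POM. EP300 had 282 reads in ATRA, 59 in POM, 82 in ATRA+POM and 302 in DMSO, with log2 ratios to DMSO of -1.02 (-1.45 to -0.61) for POM and -1.38 (-1.75 to -1.02) for ATRA+POM.

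ATRA+POM against DMSO gave the lowest promoter median of the 5 comparisons, and its distal median equalled that of POM over DMSO. Of the 139 peaks in ATRA+POM, 15 had no overlapping DMSO peak (10.8%, interval 6.65 to 17), against 32.7% of all ATRA+POM peaks; among distal peaks the shares were 15.2% and 37%. Of the 170 peaks in DMSO, 50 had no overlapping ATRA+POM peak (29.4%), against 25.8% of all DMSO peaks. Among 107 shared regions, 1 was 2-fold or more higher (0.935%, with 14.3% of all) and 41 were 2-fold or more lower (38.3%, with 10.4% of all). The median log2 ratio was -1.04 over 41 promoter regions (-1.21 to -0.53), against -0.48 over all promoters, and -0.56 over 66 distal regions (-0.85 to -0.35), against 0.10 over all distal regions. With the scale from promoter regions 7 were higher and 14 lower, against 26.9% and 2.71% of all regions, and after centring on gene number 3 were higher and 15 lower, against 10.3% and 6.61% of all. The lowest were SUZ12 and both CREBBP promoters, the internal one at -2.03 (-2.77 to -1.35), then the upstream promoter of KDM2B at -1.94 (-2.78 to -1.18) and a region inside CBX2 at -1.88 (-2.82 to -1.05).

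Adding POM to ATRA gave lower medians as well. Of the 139 peaks in ATRA+POM, 18 had no overlapping ATRA peak (12.9%), against 33.3% of all ATRA+POM peaks, and of the 173 peaks in ATRA, 55 had no overlapping ATRA+POM peak (31.8%), against 26.5% of all ATRA peaks. Among 107 shared regions 2 were 2-fold or more higher (1.87%, with 13.2% of all) and 32 were 2-fold or more lower (29.9%, with 9.9% of all). The medians were -0.76 over 40 promoter regions (-1.13 to -0.56), against -0.46 over all promoters, and -0.60 over 67 distal regions, against 0.08 over all distal regions. With the scale from background depth 3 were higher and 16 lower, against 20.4% and 4.16% of all regions. With the scale from promoter regions 5 were higher and 6 lower, against 26.5% and 2.12% of all. After centring on gene number 2 were higher and 6 lower (1.87% and 5.61%), against 10% and 6.11% of all, so that the lower share was below that of all regions.

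The effect of POM without ATRA (POM over DMSO) and with it (ATRA+POM over ATRA) can be set side by side, since these comparisons share no library. Both ratios were measured at 37 promoter regions, where 31 were below 0 in both, 0 above 0 in both and 6 opposite in sign; over all 9728 promoter regions 6879 were below 0 in both. Pearson's r across the 37 regions was 0.59, against 0.75 over all promoter regions, and across 51 distal regions it was 0.76, as over all 27908 distal ones. Regions of 1 gene and of 1 neighbourhood are not independent, and both ratios share the surroundings described above, so r is a description.

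**Figure D5:**
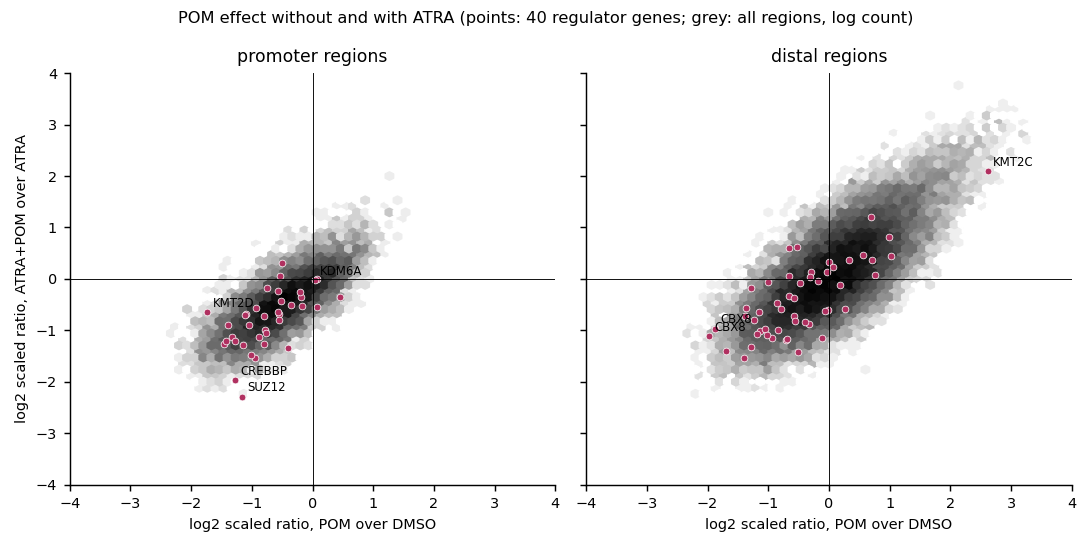
Log2 scaled ratio of ATRA+POM over ATRA (vertical) against POM over DMSO (horizontal) for promoter (left) and distal (right) regions of the 40 genes (red points) on all regions (grey, log count). In the left panel 31 of 37 points lie below 0 on both axes, with SUZ12 and CREBBP lowest, and in the right panel the KMT2C region at 2.61 and 2.10 stands alone at the upper right.

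Adding ATRA to POM moved few regions. Of the 139 peaks in ATRA+POM, 32 had no overlapping POM peak (23%), against 35% of all ATRA+POM peaks, and of the 123 peaks in POM, 11 had no overlapping ATRA+POM peak (8.94%), against 17.7% of all POM peaks. Among 83 shared regions 3 were 2-fold or more higher (3.61%, with 3.45% of all) and 3 lower (3.61%, with 1.35% of all). The 3 lower ones were promoters: SUZ12 at -1.40 (-2.32 to -0.50), the first start of CREBBP at -1.07 (-1.94 to -0.21) and the internal start of KDM2B at -1.04 (-1.59 to -0.49). The 3 higher ones were distal and had 5 to 11 reads in POM: CREBBP at 1.23, with an interval that included 0, ASH1L at 1.09 (0.06 to 2.26) and KMT2C at 1.06 (0.07 to 2.17). The strongest ATRA+POM peak that POM lacked was the KDM2B body region described above.

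By pattern over the 4 lists, 96 of the 214 regions were called in every list (44.9%, against 35% of all regions). A further 24 were called in ATRA and DMSO alone (11.2%, against 6.31%), and 9 in ATRA+POM alone (4.21%, against 13%). Regions called in DMSO alone were 21 (9.81%, against 7.36%) and in ATRA alone 25 (11.7%, against 7.93%). Patterns without POM follow its lower depth too, which cannot be told apart here for weak regions.

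Other genes of the same pathways, 63 listed as partners and relatives of the 40, had medians close to those of all promoters. A promoter region was called at 56 of them in ATRA, 54 in POM, 56 in ATRA+POM and 56 in DMSO. Their median log2 ratio of POM over DMSO was -0.40 over 54 promoters, with 0 2-fold higher and 11 lower. That of ATRA+POM over DMSO was -0.40 over 55, with 0 higher and 9 lower. Over all promoter regions both medians were -0.48, and 19.9% and 20.8% were 2-fold lower. Those 2-fold lower with POM over DMSO included the PRC1 genes PCGF6 at -1.40, SCMH1 at -1.21 and PCGF1 at -1.03, and the COMPASS subunits WDR5 at -1.23 and ASH2L at -1.15. They also included the deubiquitinase BAP1 at -1.20, the methyltransferases KMT5B at -1.35 and NSD2 at -1.67, and the demethylases KDM5C at -1.41 and RIOX1 at -1.22. PCGF6 had 132 reads in ATRA, 21 in POM, 29 in ATRA+POM and 140 in DMSO.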

How the data were processed

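The authors deposited 1 peak list and 1 summit list per library on hg38, per the submitters' processing notes. The sources used here name no aligner, peak caller, settings, duplicate handling or Tn5 shift. Each deposited peak carries a score, the fold of the summit over background, a −log10 p-value, a −log10 q-value and the distance of the summit from the peak start. Peaks off chromosomes 1 to 22 and X were left out (3 in ATRA, 2 in DMSO).

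Pileups were recovered as the whole number whose Poisson tail fits the deposited fold and −log10 p-value; 100% of peaks in each list came within 0.01. Read totals were not used here. Genes and start sites came from RefSeq tables (GRCh38.p14). A promoter peak had its summit within 1 kb of a start. Peaks matched when they overlapped by at least 1 bp, and bedtools 2.31.1 gave the same 10 counts. Ratios used regions called in both libraries with an unscaled pileup of at least 20 in at least 1 of them. Their intervals are exact binomial at 95%, those of shares Wilson, those of medians from order statistics over regions. Python 3.11.15 was used, and the code was tested on simulated data. Exons and introns were not separated.

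The 40 genes and the gene lists were chosen with earlier results of these data known. Named were, per comparison, the 5 unmatched peaks with the highest −log10 q in each direction, the 5 highest and 5 lowest ratios and unmatched peaks among the 20000 strongest, from which the text draws, and every gene's promoter. Other regions named were chosen after their values were seen.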

Additional observations from a re-analysis of the deposited data

How the results depend on the processing

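Each of 38 results (peak counts, promoter shares, unmatched peaks, 2-fold counts and medians) was recomputed under its alternatives, 211 values in all; 145 stayed within 1.5 times a count or inside the interval of a share or median, and 66 did not. The medians that moved kept their sign. The balance of 2-fold calls turned for POM over DMSO, with 7 higher and 4 lower under the scale from promoter regions, and the excess of lower regions over the share of all regions was lost for ATRA+POM over ATRA after centring on gene number. Below, the second percentage is the share of all peaks or regions under the same setting.

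Within gene bodies alone the set held 80 peaks in POM, 92 in ATRA+POM and 112 in DMSO, with a promoter share of 25% in POM. Unmatched peaks were then 42 of DMSO against POM (37.5%, all 38.5%), 9 of ATRA+POM against DMSO (9.78%, all 27.5%), 33 of DMSO against ATRA+POM (29.5%, all 28.2%) and 19 of ATRA+POM against POM (20.7%, all 32.9%). Regions 2-fold higher and lower were 0 (all 8.36%) and 16 (25.8%, all 12.1%) for POM over DMSO, 0 (all 11%) and 25 (36.2%, all 11.7%) for ATRA+POM over DMSO, and 1 (1.47%, all 10.7%) and 20 (29.4%, all 11.1%) for ATRA+POM over ATRA. With a −log10 q of at least 5, unmatched peaks were 10 of ATRA (7.19%, all 7.11%) and 9 of DMSO (6.38%, all 8.07%) in that pair, so that the share for ATRA moved from below that of all peaks to level with it. They were 2 of POM (2.11%, all 13.4%) and 41 of DMSO (29.1%, all 25.4%), 9 of ATRA+POM (7.26%, all 23.2%) and 30 of DMSO (21.3%, all 15.5%), 28 of ATRA against ATRA+POM (20.1%, all 14.9%), and 18 of ATRA+POM (14.5%, all 23.9%) and 3 of POM (3.16%, all 5.35%). Counting a peak as unmatched when no summit lay within 250 bp gave 33 of POM (26.8%, all 34.4%) and 31 of ATRA+POM (22.3%, all 37.9%) against DMSO, 35 of ATRA+POM against ATRA (25.2%, all 38.9%) and 24 of POM against ATRA+POM (19.5%, all 23.6%). Lists of equal length gave 18 of ATRA+POM against POM (14.5%, all 23.8%).

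A minimum pileup of 10 gave 2 regions higher for ATRA (1.41%, all 1.11%) and 2 for ATRA+POM (1.65%, all 13.8%) over DMSO. A minimum of 40 gave 0 higher for ATRA over DMSO (all 0.398%), with a distal median of -0.10, 1 higher for ATRA+POM over ATRA (1.28%, all 12.2%), and 1 higher and 1 lower for ATRA+POM over POM (1.89% each, all 2.25% and 0.659%). The scale from background depth gave promoter and distal medians of -0.18 and -0.14 for ATRA over DMSO, with 2 lower (1.59%, all 1.6%), and -0.48 and -0.31 for ATRA+POM over ATRA, with 16 lower (15%, all 4.16%). With it 16 were lower for POM over DMSO (17%, all 5.72%) and 3 higher for ATRA+POM over DMSO (2.8%, all 18.3%). The scale from promoter regions gave 7 higher (7.45%, all 22.8%) and 4 lower (4.26%, all 2.55%) with medians of -0.31 and -0.08 for POM over DMSO. It gave 7 (6.54%, all 26.9%) and 14 (13.1%, all 2.71%) with a distal median of -0.08 for ATRA+POM over DMSO, and 5 (4.67%, all 26.5%) and 6 (5.61%, all 2.12%) with -0.28 and -0.11 for ATRA+POM over ATRA. Centring on gene number and on GC content, both chosen after seeing the data, gave promoter medians of -0.24 and -0.31 for POM over DMSO, -0.35 and -0.42 for ATRA+POM over DMSO, and -0.34 and -0.29 for ATRA+POM over ATRA. With gene number the distal median for POM over DMSO was -0.28, with 1 higher (1.06%, all 8.5%) and 9 lower (9.57%, all 6.38%). There were 3 higher (2.8%, all 10.3%) and 15 lower (14%, all 6.61%) for ATRA+POM over DMSO, and 6 lower for ATRA+POM over ATRA (5.61%, all 6.11%). The part of the lower depth of POM in its missing distal peaks was not tested. No paired analysis was possible because each condition is 1 library, and for the same reason no replicate could be left out.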
